A study of Mus musculus with 3 samples.

Results

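Cells that held transcripts of both *Six2* and *Wnt4* were described in the embryonic mouse kidney, where the pair marks nephron progenitors that are primed to leave the progenitor pool. The cells were selected on the counts themselves. A barcode was a member when it had 1000 to 6000 detected genes, a mitochondrial share of at most 10%, at least 1 unique molecular identifier (UMI, a count of 1 captured transcript) of *Six2*, at least 1 UMI of *Wnt4*, and at most 2 UMIs of the stromal collagens *Col1a1* and *Col3a1* together. There were 172 members among 5233 kept cells of the Enl-WT library, 305 among 4144 of the Enl-T1 library and 339 among 2754 of the Enl-T1 TDI-11055 library, 816 of 12131 in all. The levels of *Six2* and *Wnt4* in these cells, and any comparison that rests on having found both, are descriptions of the selection.

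Whole kidneys of C57BL/6 (B6) embryos at E15.5 (embryonic day) were profiled by droplet 3′ single-cell RNA sequencing in 3 libraries, 1 per group. Enl-WT embryos were *Enl* +/+ *Wt1* GFPCre/+, Enl-T1 embryos were *Enl* flox-T1/+ *Wt1* GFPCre/+, and Enl-T1 TDI-11055 embryos had the Enl-T1 genotype (treated Enl-T1 below) and mothers that received TDI-11055 by mouth at 100 mg/kg daily from E10.5 to E14.5. ENL, encoded by *Mllt1*, reads acetylated histones, the T1 allele is a small in-frame insertion in its acyl-binding domain found in Wilms tumor, and TDI-11055 blocks the acyl-binding pocket. All 3 groups therefore carried 1 *Wt1* allele that was replaced by the GFP-Cre fusion, and the Cre acts in precursors of the nephron and the stroma and not in the ureteric bud. The Enl-WT library pooled the kidneys of fewer embryos than the Enl-T1 library, and the number of embryos in the treated library was not stated. The matrices did not say which cell came from which embryo, and 3′ counts cannot tell the T1 transcript of *Enl* from the wild-type transcript.

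As background, *Six2* encodes a homeodomain factor that holds nephron progenitors of the cap mesenchyme in self-renewal, together with *Cited1*, *Eya1*, *Osr1* and *Sall1*. Signals from the ureteric bud induce *Wnt4*, a secreted Wnt ligand that drives the progenitors to aggregate and turn into the epithelium of the renal vesicle, where *Lhx1*, *Pax8*, *Jag1* and *Cdh6* are used. A cell with *Six2* and *Wnt4* together stands between these states, as in the pretubular aggregate. *Hox* genes set position along the body axis, and the posterior *Hox10* and *Hox11* paralogs are needed for kidney formation.

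There was no replicate library, so no test between groups was possible and no p-value is given. Every interval is a 95% interval and covers counting error only, not the differences between embryos or preparations. In the order given above, total UMIs were 37221435, 63336586 and 76619303, with a median of 5090, 9391 and 16932 UMIs per kept cell. Ribosomal protein genes took a median of 18.9%, 31.7% and 30.2% of the UMIs of a member. By *Xist* and Y-linked genes, female cells were 23.8%, 69.5% and 35.7% of the members. Pairs of libraries shared 5 to 8 kept barcodes, and no barcode was a member in both libraries of a pair. *Mllt1* was at 40.1 CPM (a gene's UMIs summed over the members, per 1000000 UMIs of those members, interval 30.3 to 52.1) in Enl-WT members, 22.1 (17.9 to 27.1) in Enl-T1 and 19.3 (16.2 to 22.9) for treated Enl-T1 members.

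The share of co-expressing cells was highest in the treated library and lowest in Enl-WT as the cells were sequenced. Members were 3.29% of kept cells in Enl-WT (interval 2.82% to 3.81%), 7.36% in Enl-T1 (6.58% to 8.20%) and 12.3% in treated Enl-T1 (11.1% to 13.6%). The difference was 4.07 percentage points (3.14 to 5.03) for Enl-T1 minus Enl-WT and 4.95 (3.48 to 6.45) for treated Enl-T1 minus Enl-T1. A cell must yield at least 1 UMI of each gene to be counted, and the order of the shares was also the order of the depths.

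All shares were smaller when cells were brought to 1 depth, and so were the differences in points. When each cell was thinned to 2000 UMIs, which left out 96, 15 and 20 shallower cells, 36 members (0.701%), 41 (0.993%) and 39 (1.43%) remained. The difference was then 0.292 points (-0.0951 to 0.702) for Enl-T1 minus Enl-WT and 0.434 points (-0.107 to 1.02) for treated Enl-T1 minus Enl-T1, so neither neighbouring pair of libraries could be told apart at this depth. At 4000 UMIs the difference was 0.372 points (-0.334 to 1.08) for Enl-T1 minus Enl-WT and 1.40 points (0.474 to 2.38) for treated Enl-T1 minus Enl-T1, so the second pair differed beyond counting error. Between treated Enl-T1 and Enl-WT the difference at 2000 UMIs was 0.726 points (0.236 to 1.28). Within each library the share of members was higher in deeper cells. Among cells of 4000 to 8000 UMIs it was 3.69% (3.01% to 4.47%) in Enl-WT, 1.61% (0.998% to 2.45%) in Enl-T1 and 7.83% (5.35% to 10.99%) for treated Enl-T1. Among cells of 8000 to 16000 UMIs it was 6.06% (4.58% to 7.86%), 9.57% (8.32% to 10.9%) and 11.1% (8.53% to 14.05%). Under 4000 UMIs the shares were 0.527%, 1.05% and 2.46%, and at 16000 UMIs or more they were 7.79%, 14.1% and 16.4%. Treated Enl-T1 had the highest share in all 4 bins, and Enl-T1 lay above Enl-WT in 3 of them, the exception being 4000 to 8000 UMIs. The intervals of Enl-WT and Enl-T1 overlapped in the shallowest and the deepest bin. Members themselves had a median of 6866, 13045 and 21303 UMIs, above the 5249, 10549 and 18836 of cells with *Six2* and no *Wnt4* under the same limits.

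**Figure D1:**
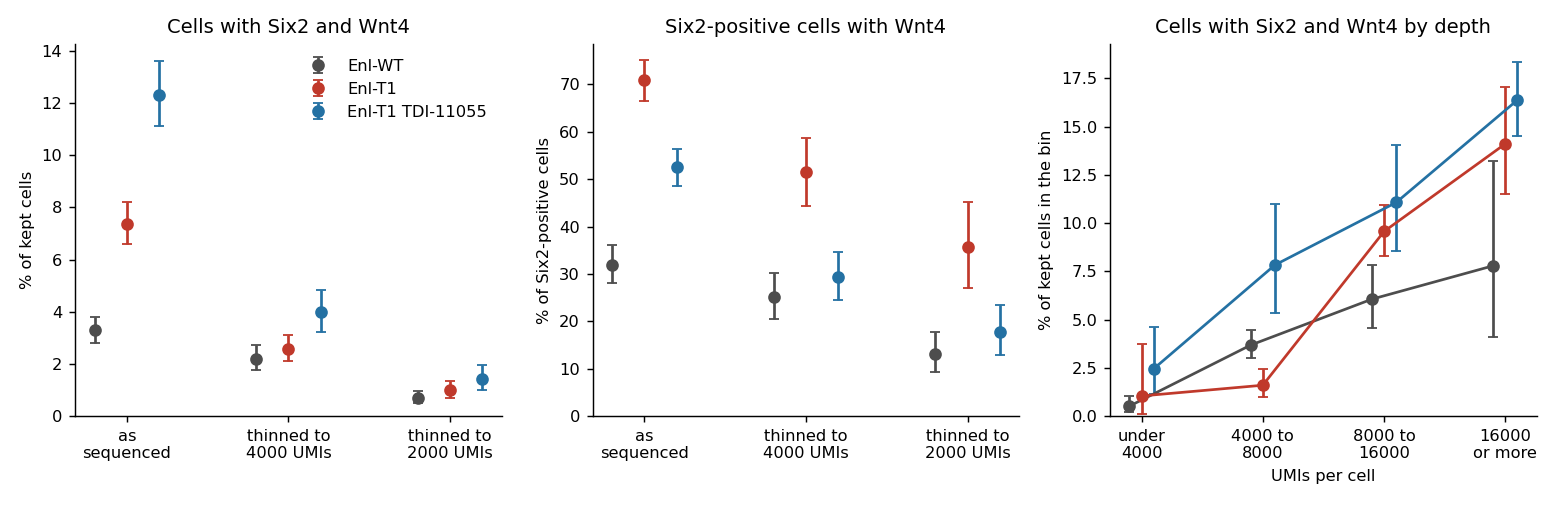
Share of *Six2* and *Wnt4* co-expressing cells among kept cells (left), share of *Six2*-positive cells that also held *Wnt4* (middle), both as sequenced and after thinning, and share of co-expressing cells by UMIs per cell (right), with points for the 3 libraries and bars for exact 95% intervals of counting. The shares of kept cells drop from 3.29%, 7.36% and 12.3% to 0.701%, 0.993% and 1.43% at 2000 UMIs, while Enl-T1 has the highest share of *Wnt4* among *Six2*-positive cells at each depth.

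Among *Six2*-positive cells, *Wnt4* was found more often in Enl-T1 than in either other library at each depth. As sequenced, 32.0% (28.0% to 36.1%) of 538 *Six2*-positive cells in Enl-WT, 70.9% (66.4% to 75.2%) of 430 in Enl-T1 and 52.5% (48.5% to 56.4%) of 646 in treated Enl-T1 also held *Wnt4*. At 2000 UMIs the shares were 13.2% (9.41% to 17.8%), 35.7% (26.9% to 45.1%) and 17.8% (12.98% to 23.5%). The difference at 2000 UMIs was 22.5 points (12.6 to 32.7) for Enl-T1 minus Enl-WT and -17.8 points (-28.5 to -7.42) for treated Enl-T1 minus Enl-T1, and treated Enl-T1 and Enl-WT could not be told apart (4.62 points, -2.05 to 11.5). The pattern had 2 parts: at 2000 UMIs *Six2*-positive cells were 5.31% of cells in Enl-WT, 2.79% in Enl-T1 and 8.01% for treated Enl-T1, and *Wnt4*-positive cells were 15.6%, 25.9% and 19.3%. Seen from the other side, 4.51% (3.18% to 6.18%), 3.83% (2.76% to 5.16%) and 7.39% (5.30% to 9.96%) of *Wnt4*-positive cells held *Six2* at 2000 UMIs.

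Free RNA can place transcripts in cells that do not make them, and endothelial cells, which should lack both genes, were used to measure it. They were cells with at least 3 of 6 endothelial genes, with a median of 5899.5, 10744 and 15294 UMIs. Members among them numbered 1 of 406 (0.246%) in Enl-WT, 0 of 263 in Enl-T1, which allows a share of up to 1.39%, and 1 of 110 (0.909%) in treated Enl-T1. *Wnt4* alone was found in 10.6%, 28.5% and 10.9% of these endothelial cells as sequenced, and in 3.02%, 5.70% and 1.82% at 2000 UMIs. The shares of *Wnt4* among *Six2*-positive cells lay above these in each library, while the endothelial share was also highest in Enl-T1.

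The rule's own genes were sparse in the members. The median member held 1 UMI of *Six2* in Enl-WT, 1 in Enl-T1 and 3 for treated Enl-T1, and 2, 4 and 3 UMIs of *Wnt4*. Members with exactly 1 UMI of each gene, just inside the threshold, numbered 47, 34 and 27. Members with at least 2 UMIs of each numbered 33 (0.631% of kept cells), 114 (2.75%) and 166 (6.03%). At the collagen limit, 2, 5 and 5 members had 2 collagen UMIs, and 0, 1 and 0 cells with both genes stood just outside with 3. Summed over the members, *Six2* was at 183 CPM, 130 CPM and 159 CPM and *Wnt4* at 496 CPM, 417 CPM and 278 CPM in Enl-WT, Enl-T1 and treated Enl-T1.

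Members ran from *Six2*-led to *Wnt4*-led cells, and several genes outside the rule differed along that gradient. *Wnt4* UMIs outnumbered *Six2* UMIs in 90 members of Enl-WT, 206 of Enl-T1 and 169 of treated Enl-T1, and *Six2* led in 28, 46 and 122. *Cited1*, a transcriptional coregulator of uncommitted progenitors, was at 221 CPM in *Six2*-led and 71.2 CPM in *Wnt4*-led members of Enl-WT. In Enl-T1 the levels of *Cited1* were 135 CPM and 29.9 CPM, and in treated Enl-T1 they were 233 CPM and 52.6 CPM. *C1qtnf12*, which encodes a secreted protein of the committed state, went the other way, with 97.3 CPM against 194 CPM in Enl-WT, 61.2 against 167 in Enl-T1 and 71.7 against 179 in treated Enl-T1. *Ccnd1*, cyclin D1, was at 243 CPM in *Six2*-led and 748 CPM in *Wnt4*-led members of Enl-WT, and at 287 and 249 CPM in Enl-T1, where the intervals (248 to 330 and 231 to 268) overlapped. In treated Enl-T1 members *Ccnd1* was at 207 and 352 CPM. *Fgf8*, an FGF ligand of the pretubular aggregate, was higher in *Six2*-led members in each library, at 53.0 against 19.4 CPM, 59.7 against 15.6 CPM and 47.9 against 33.4 CPM. Its intervals overlapped in Enl-WT (27.4 to 92.7 and 10.9 to 32.0) and in treated Enl-T1 (40.0 to 56.9 and 27.5 to 40.2), and were apart in Enl-T1. *Pax8* was at 39.8 against 113 CPM in Enl-WT, 56.8 against 57.1 CPM in Enl-T1 and 46.4 against 78.8 CPM in treated Enl-T1.

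The label was then checked against genes that the rule did not use. Self-renewal genes of nephron progenitors were present: *Pax2* was at 460 CPM, 384 CPM and 248 CPM, *Eya1* at 151, 126 and 131 CPM, and at least 2 UMIs of the 15-gene self-renewal list were found in 98.8%, 99.7% and 95.9% of members. The same held for 72.2%, 82.4% and 80.2% of cells with *Wnt4* and no *Six2* under the same limits, so this share is not specific to members. Markers of immune cells were nearly absent (2.86, 4.71 and 1.91 CPM summed over 6 genes, with *C1qb* at 0 in each library), and endothelial markers summed to 35.1, 22.6 and 26.4 CPM over 7 genes. Markers of podocytes summed to 112 CPM over 8 genes in Enl-WT, 31.8 in Enl-T1 and 28.4 for treated Enl-T1. Markers of the distal nephron summed to 93.1, 36.3 and 29.2 CPM over 10 genes, with *Slc12a3* at 0 in each library, and those of the proximal tubule to 20.8, 8.25 and 9.97 CPM over 9 genes. The 12 stromal markers summed to 671, 777 and 692 CPM. Erythroid markers, mostly haemoglobin genes, summed to 1076, 1123 and 855 CPM over 9 genes. At least 2 UMIs of them were found in 78.5%, 92.8% and 96.8% of members, and their source was not tested.

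Some members also carried genes of the ureteric bud, most often in Enl-WT. The 9 ureteric markers summed to 281 CPM (254 to 311) in Enl-WT members, 98.5 (89.3 to 108) in Enl-T1 and 168 (159 to 178) for treated Enl-T1, none of them at 0. With the 8 of these genes that progenitors should lack (*Ret*, *Wnt11*, *Wnt9b*, *Wnt7b*, *Calb1*, *Gata3*, *Aqp2*, *Upk1b*), a set chosen after the values were seen, at least 3 UMIs were found in 21 members of Enl-WT (12.2%, 7.72% to 18.1%), 6 of Enl-T1 (1.97%, 0.725% to 4.23%) and 19 of treated Enl-T1 (5.60%, 3.41% to 8.61%). All 21 and all 6 had at least 5 such UMIs, as did 15 of the 19. In Enl-WT the doublet caller Scrublet marked 11 of the 21 by its own threshold. In the mutant libraries that threshold marked 3 and 0 barcodes, so a set number of highest scores was marked instead. These marks held 4 of the 6 and 7 of the 19. Over all members 13 (7.56%), 7 (2.30%) and 8 (2.36%) were marked, beside 2.52%, 3.84% and 2.43% of kept cells. Rates of Enl-WT and of the mutant libraries thus rest on different rules. Without the cells with at least 3 ureteric UMIs, 151, 299 and 320 members remained, and values without them are given below for several lists and genes.

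Within each library, members were compared with cells that held *Six2* and no *Wnt4* (366, 125 and 307 cells) and with cells that held *Wnt4* and no *Six2* (1131, 1485 and 834 cells). Absence of a UMI does not show absence of expression, and deeper cells more often met the rule. Values are log2 ratios of CPM less the median of all genes tested, which were those with at least 20 CPM on average, and a gene is called when it is at least 2-fold higher or lower in each of the 3 libraries. Against *Six2*-only cells, 14 of 6147 genes were called higher (0.228%) and 10 lower (0.163%).

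Members held more of the commitment genes and less of several self-renewal genes than *Six2*-only cells of their own library. Of 19 commitment genes 11 were tested, 10 of them were higher in all 3 libraries and 4 were called, against 1264 of 6147 genes that were higher in all 3 libraries. The called genes were *Jag1*, a Notch ligand, *Cdh6*, the cadherin of the renal vesicle, *Greb1*, and *C1qtnf12*. *Cdh6* was 3.22-fold (2.29 to 4.58), 2.63-fold (1.96 to 3.59) and 3.26-fold (2.22 to 4.93) higher in members in Enl-WT, Enl-T1 and treated Enl-T1. *Jag1* was 2.34-fold, 4.11-fold and 4.12-fold higher. *Lhx1*, a LIM homeodomain factor needed for the renal vesicle, was 12.9-fold higher (7.89 to 22.4) in Enl-WT members, 2.55-fold (1.39 to 5.11) in Enl-T1 and 1.33-fold (1.01 to 1.77) in treated Enl-T1. *Fgf8* was the exception, with log2 ratios of 0.24, -0.72 and -0.24.

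The self-renewal list moved less. Of 13 genes tested, 7 were lower in members in all 3 libraries, with list medians of -0.31, -0.38 and -0.30, and *Cited1* alone was called, at 0.370-fold (0.315 to 0.432), 0.269-fold (0.224 to 0.323) and 0.505-fold (0.464 to 0.549) of its level in *Six2*-only cells. *Crym*, which encodes a thyroid hormone binding protein, was at 0.564-fold, 0.310-fold and 0.635-fold, and *Osr1*, a zinc finger factor of early progenitors, at 0.527-fold, 0.412-fold and 0.566-fold. *Eya1*, a transcriptional coactivator of progenitors, stayed near its level in *Six2*-only cells (0.878-fold, 0.946-fold and 0.796-fold). Outside the lists, the largest differences shared by the 3 libraries were in *Aldh1a2*, which makes retinoic acid (3.68-fold, 4.50-fold and 3.99-fold higher), *Plet1* and *Scube3*, and, in the lower direction, in *Ajap1*, *Moxd1*, *Rspo3*, *Btbd11*, *Nrp1*, *Pcdh17* and *Cdc42ep3*. *Creg1* and *Ptpn13* completed the 8 leading genes that were higher.

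**Figure D2:**
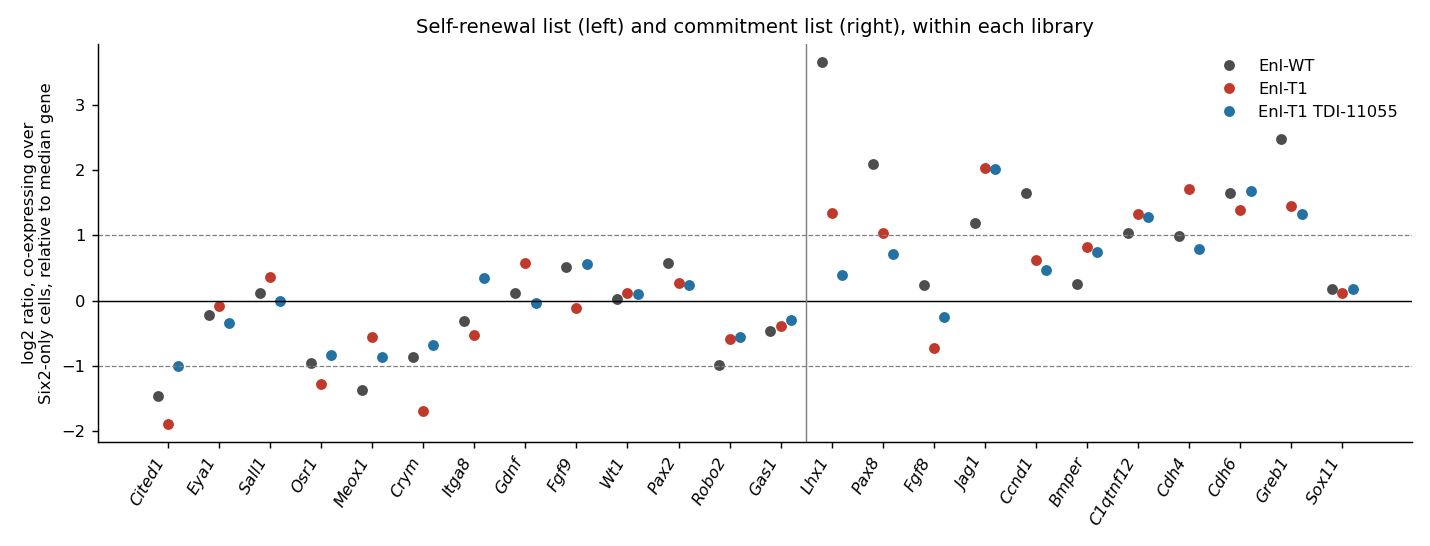
Log2 ratio of members over *Six2*-only cells of the same library, relative to the median gene, for the tested genes of the self-renewal list (left of the grey line) and the commitment list (right), with a point for each library and dashed lines at 2-fold. *Cited1* lies at or below the lower line and *Jag1*, *C1qtnf12*, *Cdh6* and *Greb1* above the upper line in all 3 libraries.

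Against *Wnt4*-only cells, 111 of 6485 genes were called higher in members (1.71%) and 446 lower (6.88%). The *Wnt4*-only cells included many ureteric cells: 49.3%, 52.3% and 55.6% of them had at least 3 of the 8 ureteric UMIs. Without such cells in either set the counts were 20 and 135. All 12 self-renewal genes tested were higher in members in each library and 10 were called, among them *Eya1* (151 against 21.7 CPM, 126 against 23.5 CPM and 131 against 8.78 CPM) and *Gdnf*, the ligand that draws the ureteric bud (58.0 against 8.99, 35.1 against 4.28 and 54.1 against 4.39 CPM). Genes of S phase and mitosis were higher in members in every library (16 of 16 and 14 of 14 tested), none of them called. Immediate early genes went the other way, with 12 of 12 lower and 11 called, and 14 of 17 adhesion and epithelium genes were lower, 10 of them called. Without the cells with ureteric UMIs, all 12 immediate early genes were again lower and 8 called, 10 of 14 adhesion and epithelium genes were lower and 8 called, all 13 self-renewal genes tested were higher and 7 called, and S phase and mitosis genes were higher in all 3 libraries in 10 of 16 and 2 of 14. Leading genes were ranked against all *Wnt4*-only cells, those with ureteric UMIs included. Lower in members were *Fabp4*, *Sprr2f*, *F2rl1*, *Adgrg6*, *Ly6a*, *S100a14*, *Ptgs1* and *Plcl1*, and higher were *Crym*, *Itga8*, *Gdnf*, *Tril*, *Eya1*, *Des*, *Osr1* and *Cited1*.

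Between libraries, members of Enl-T1 were set against members of Enl-WT over 6124 genes. The median gene was at a log2 ratio of -0.36, and changes are given relative to it. At least 2-fold higher in Enl-T1 were 299 genes (4.88%) and at least 2-fold lower were 176 (2.87%). On plain CPM these counts were 134 and 620, and on a total without mitochondrial, ribosomal protein and haemoglobin genes they were 283 and 336, so the balance of the directions depended on the scale. Log2 ratios ran lower for genes with longer exonic sequence (Spearman's rho -0.47 across 6121 genes, which share the same libraries and are not replicates).

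Several self-renewal genes were lower in Enl-T1 members. Of 15 genes in the list 13 were tested, with a median log2 ratio of -0.28, 8 lower and 5 higher relative to the median gene, of which 3 were at least 2-fold lower and 1 higher. On plain CPM 12 of the 13 were lower, and without the cells with ureteric UMIs 10 were lower relative to the median gene, with the same counts past 2-fold. *Crym* was at 147 CPM (127 to 168) in Enl-WT, 39.8 (34.0 to 46.3) in Enl-T1 and 135 (126 to 144) for treated Enl-T1. *Cited1* was at 143 CPM (124 to 165), 51.1 (44.6 to 58.4) and 136 (127 to 145). *Itga8*, the integrin alpha-8 subunit of the cap mesenchyme, was at 70.9 CPM (57.6 to 86.3), 23.6 (19.2 to 28.7) and 30.5 (26.5 to 34.9). Over all members *Crym* and *Cited1* were thus low in Enl-T1 alone, whereas *Itga8* was low in both mutant libraries. With members chosen at 2000 UMIs (36, 41 and 39 cells), *Cited1* was at 72.7, 54.9 and 120 CPM and *Crym* at 113, 44.7 and 98.8 CPM. With members chosen at 4000 UMIs, *Cited1* was at 151, 44.7 and 105 CPM and *Crym* at 133, 36.2 and 107 CPM. The gap in *Cited1* between Enl-WT and Enl-T1 thus depended on the depth at which members were chosen. *Meox1*, a homeobox factor, was higher, at 18.6 CPM (12.2 to 27.3), 35.8 (30.3 to 42.0) and 40.3 (35.7 to 45.4), a log2 ratio of 1.30 for Enl-T1 over Enl-WT. *Eya1* and *Pax2* were within 0.10 of the median gene in log2 ratio. For detection, the 172, 305 and 339 members chosen at full depth were thinned to 2000 UMIs, so the choice of cells was not matched for depth. *Cited1* was then found in 22.1% (16.1% to 29.0%), 8.52% (5.64% to 12.2%) and 19.5% (15.4% to 24.1%) of them, and in 44.2%, 30.8% and 54.6% as sequenced.

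Commitment genes did not move as a group between Enl-WT and Enl-T1. Of 19 genes 14 were tested, 9 higher and 5 lower, with 1 at least 2-fold higher (*Greb1*) and 1 lower (*Lhx1*). Without the cells with ureteric UMIs the list had 8 higher and 6 lower, *Greb1* had a log2 ratio of 0.86 in place of 1.06, and none was at least 2-fold higher. The list's median log2 ratio was 0.29 relative to the median gene, 0.12 without those cells, -0.06 on plain CPM and -0.14 with members chosen at 2000 UMIs, so its sign depended on the processing. *Lhx1* was at 105 CPM (88.9 to 124) in Enl-WT, 21.2 (17.1 to 26.1) in Enl-T1 and 21.0 (17.7 to 24.7) for treated Enl-T1. *Osr2*, a further gene of the early nephron that was below the level tested, was also highest in Enl-WT members, at 25.8, 1.65 and 3.81 CPM. *Greb1* was at 33.7 CPM (24.7 to 44.8), 54.9 (48.1 to 62.4) and 23.2 (19.7 to 27.1). *Cdh6* was at 75.9 CPM (62.1 to 91.8), 93.1 (84.1 to 103) and 20.4 (17.1 to 24.1), so that the treated library stood apart from both others. *Bmper*, which encodes a secreted regulator of BMP signalling, and *C1qtnf12* had ratios of 0.987 (0.740 to 1.33) and 0.982 (0.836 to 1.16) for Enl-T1 over Enl-WT on plain CPM.

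**Figure D3:**
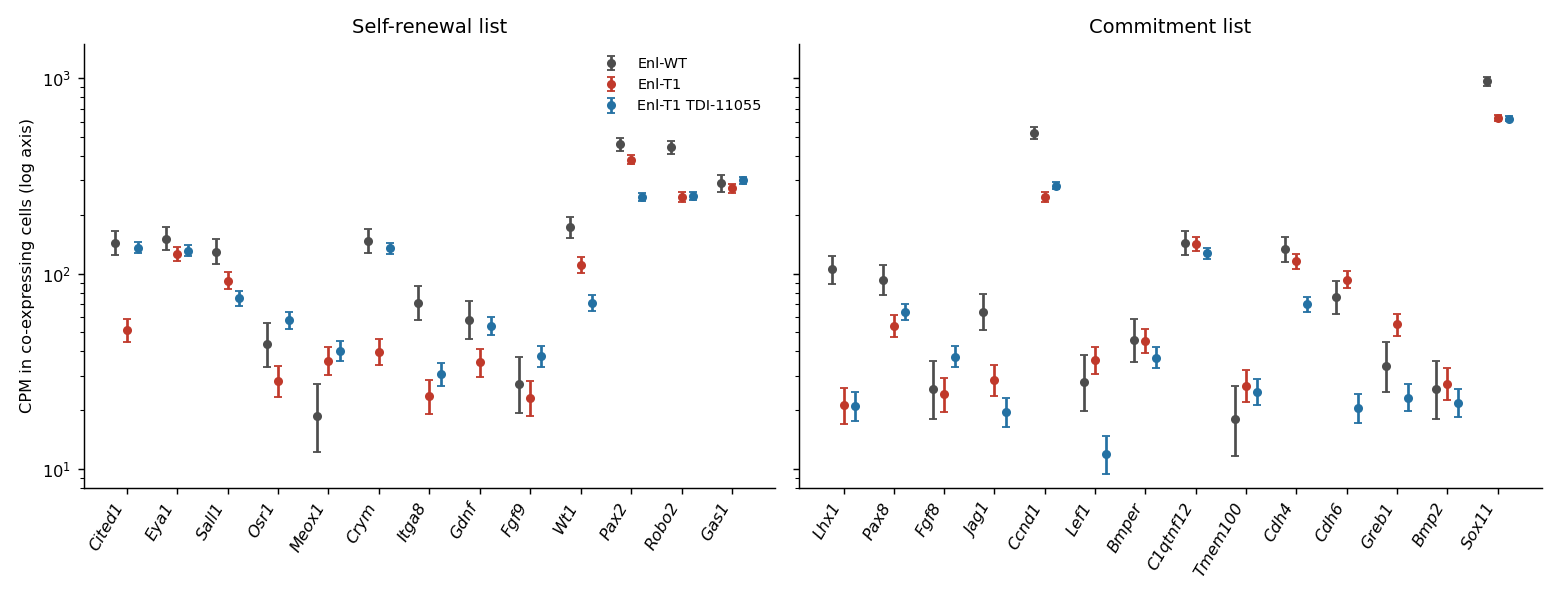
CPM (log axis) of the tested genes of the self-renewal list (left) and the commitment list (right) in the members of the 3 libraries, with exact 95% Poisson intervals. *Cited1* and *Crym* have their low point in Enl-T1 (51.1 and 39.8 CPM), *Lhx1* is high in Enl-WT alone (105 CPM), and *Cdh6* is low in treated Enl-T1 (20.4 CPM).

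*Hox* genes were higher in Enl-T1 members than in Enl-WT members, least so in the *Hoxb* cluster. Of 39 genes 28 were tested, 27 were higher relative to the median gene (25 on plain CPM) and 19 were at least 2-fold higher, beside 4.88% of all genes, with a median log2 ratio of 1.37 (1.01 on plain CPM). All 7 tested *Hoxa*, 6 *Hoxc* and 7 *Hoxd* genes were higher, 6 of each cluster at least 2-fold. Of 8 *Hoxb* genes 1 was at least 2-fold higher, *Hoxb9* (227 CPM in Enl-WT, 491 in Enl-T1 and 436 for treated Enl-T1), and *Hoxb8* was lower (122, 57.7 and 73.3 CPM).

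The largest ratios belonged to genes that were rare in Enl-WT members. *Hoxd12* (GRCm38, chromosome 2, 74675013 to 74677705) was at 10.0 CPM (5.48 to 16.8) in Enl-WT, 86.2 (77.6 to 95.5) in Enl-T1 and 34.4 (30.2 to 39.1) for treated Enl-T1. *Hoxc11* was at 8.59 CPM (4.44 to 15.0), 64.6 (57.1 to 72.7) and 33.0 (28.8 to 37.6). *Hoxa5* (chromosome 6, 52201754 to 52204587) was at 45.1 CPM (34.7 to 57.7), 205 (192 to 220) and 199 (189 to 210). For *Hoxa5* the mutant libraries did not differ beyond counting error, whereas *Hoxd12* and *Hoxc11* lay between the other levels in the treated library. *Hoxa3* and *Hoxa7* were 4.50-fold and 4.46-fold higher in Enl-T1 on plain CPM. Among other *Hox10* and *Hox11* paralogs, *Hoxa11* was at 57.3, 85.1 and 106 CPM, *Hoxd11* at 195, 376 and 224 CPM, *Hoxa10* at 154, 259 and 245 CPM, and *Hoxc10* at 178, 417 and 216 CPM.

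Summed *Hox* CPM was of like size in members and in *Six2*-only cells of the same library: 2264 and 2280 in Enl-WT, 4264 and 3954 in Enl-T1 and 3351 and 3420 in treated Enl-T1. In *Wnt4*-only cells it was 1686, 2383 and 1741. The higher *Hox* level in Enl-T1 was therefore not limited to cells with both genes.

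In the treated library the clusters parted. Relative to the median gene, all 6 *Hoxc* genes and all 7 *Hoxd* genes tested were lower in treated Enl-T1 than in Enl-T1, with median log2 ratios of -1.04 and -0.98 and 3 genes of each at least 2-fold lower, beside 1.08% of all genes. *Hoxa* and *Hoxb* had medians of -0.07 and -0.10, with none at least 2-fold lower. Summed over each cluster, *Hoxa* was at 437 CPM in Enl-WT, 1090.2 in Enl-T1 and 1078 for treated Enl-T1, and *Hoxc* at 526, 1159 and 575 CPM. The 3 genes of *Hoxc* past 2-fold were *Hoxc8* (123, 240 and 110 CPM), *Hoxc6* (83.8, 174 and 81.6 CPM) and *Hoxc4* (27.2, 53.0 and 25.2 CPM), and those of *Hoxd* were *Hoxd3*, *Hoxd4* and *Hoxd12*. *Hoxb2* was higher in the treated library, at 79.5, 116 and 212 CPM. *Hoxb1*, below the level tested, had 0 UMIs in Enl-WT members, 36 (8.48 CPM) in Enl-T1 and 307 (45.0 CPM) for treated Enl-T1.

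**Figure D4:**
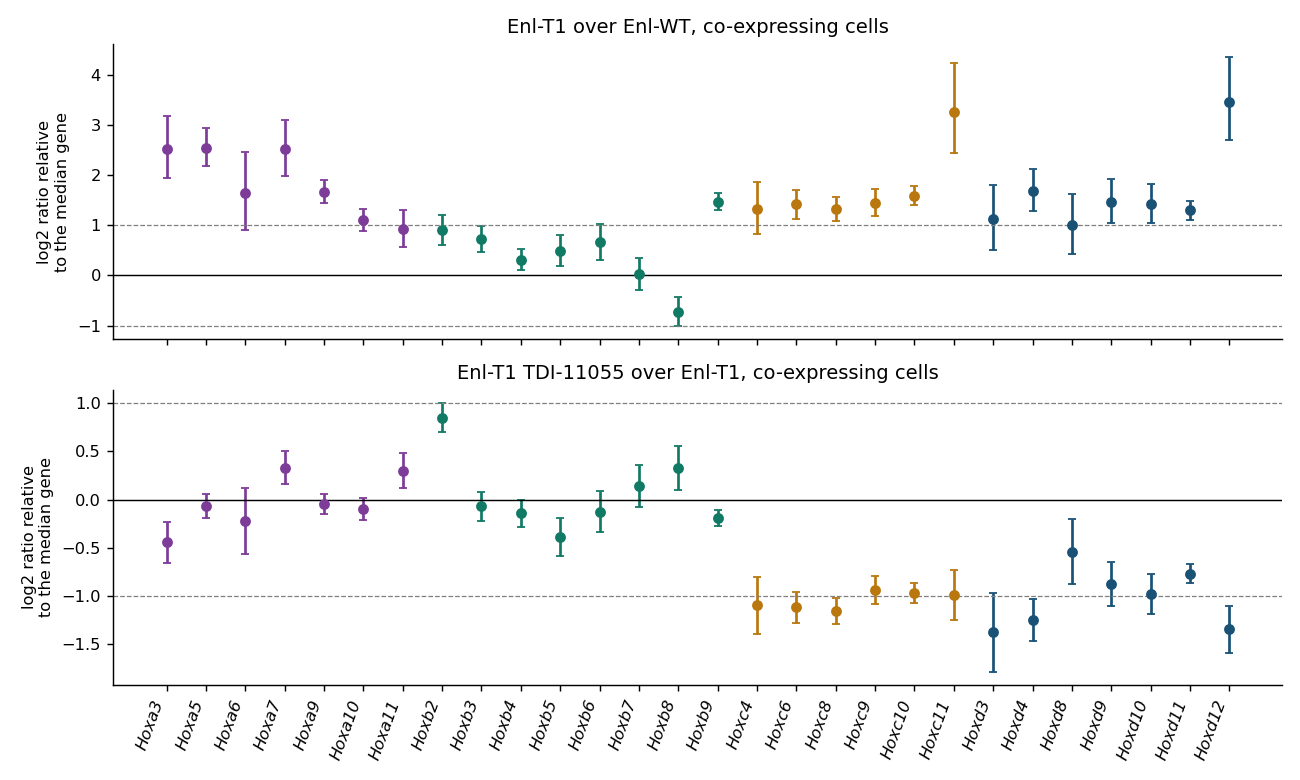
Log2 ratio relative to the median gene of the 28 tested *Hox* genes in members, Enl-T1 over Enl-WT (top) and treated Enl-T1 over Enl-T1 (bottom), coloured by cluster, with exact 95% intervals and dashed lines at 2-fold. In the top panel 27 genes lie above 0, and in the bottom panel the *Hoxc* and *Hoxd* genes lie below 0 while *Hoxa* and *Hoxb* genes scatter around it. The panels share the Enl-T1 library.

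Outside the *Hox* clusters, the genes with the largest ratios in Enl-T1 over Enl-WT included *Crabp1*, which binds retinoic acid in the cytoplasm, at 5.73 CPM (2.47 to 11.3), 43.6 (37.5 to 50.3) and 14.2 (11.5 to 17.3) in Enl-WT, Enl-T1 and treated Enl-T1. *Hoxb5os*, an antisense transcript of the *Hoxb* cluster, was at 32.2, 175 and 210 CPM, and *Anks1b* was at 4.30, 32.8 and 30.0 CPM. *Rab26os* was at 5.73, 60.6 and 37.1 CPM. *Pam16*, which encodes a subunit of the mitochondrial protein import motor, had 0 UMIs in Enl-WT members (at most 2.64 CPM) and 284 and 538 UMIs (66.9 and 78.8 CPM) in the mutant libraries. *Pam16* had 10 UMIs over all 5233 kept Enl-WT cells and 2929 over the 4144 of Enl-T1, so the difference spanned the whole library. The 3 matrices list the same genes, and the cause of the difference was not tested.

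Adhesion and epithelium genes were lower in Enl-T1 members, and much of the difference was carried by the cells with ureteric UMIs. Of 17 genes 13 were tested, 12 were lower, 7 at least 2-fold (beside 2.87% of all genes), and the median log2 ratio was -1.29. *Epcam*, an epithelial adhesion molecule, was at 198 CPM (175 to 222) in Enl-WT, 60.6 (53.4 to 68.4) in Enl-T1 and 93.3 (86.2 to 101) for treated Enl-T1. *Cdh1*, E-cadherin, was at 56.6 CPM (44.8 to 70.5), 10.1 (7.33 to 13.6) and 9.97 (7.74 to 12.6). Without members that had at least 3 ureteric UMIs, the median was -0.38, with 9 genes lower and 2 of them at least 2-fold. *Epcam* then had a log2 ratio of -0.08 in place of -1.35, *Krt8* 0.46 in place of -1.44 and *Krt18* 0.62 in place of -1.29, while *Cdh1* (-1.51) and *Itga6* (-1.06) remained at least 2-fold lower.

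**Figure D5:**
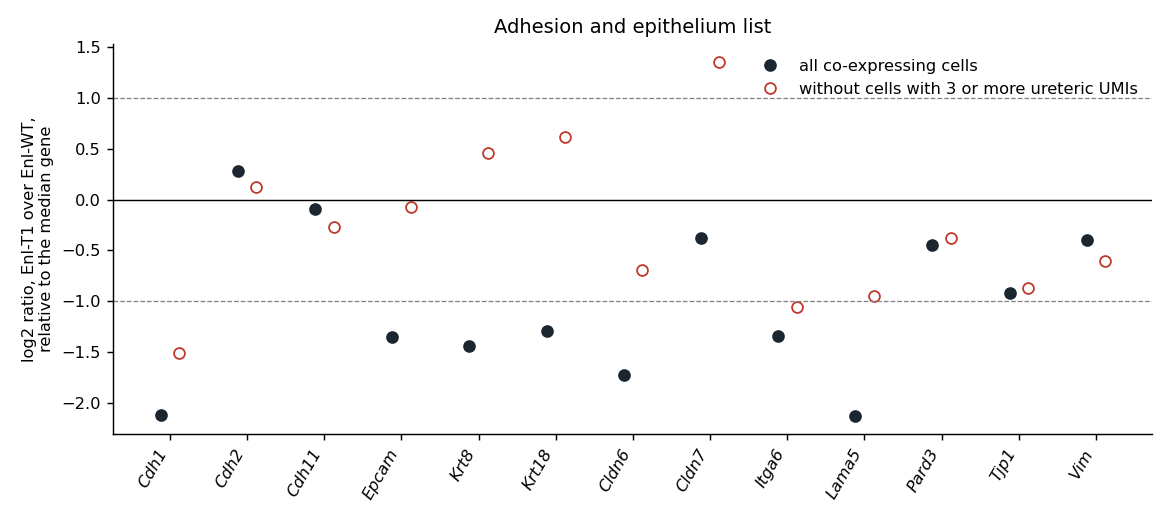
Log2 ratio of Enl-T1 over Enl-WT relative to the median gene for the 13 tested genes of the adhesion and epithelium list, in all members (filled) and without members that had at least 3 UMIs of 8 ureteric genes (open), with dashed lines at 2-fold. *Epcam*, *Krt8* and *Krt18* move from below -1 to -0.08, 0.46 and 0.62, and *Cdh1* and *Itga6* stay below -1. The open point of *Cdh1* rests on 18 UMIs in Enl-WT and 18 in Enl-T1.

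The 10 leading genes lower in Enl-T1 split in the same way. *Krt7*, *Tfcp2l1* (a transcription factor of the collecting duct) and *Klf5* had log2 ratios of -2.23, -2.23 and -2.33 in all members, and 0.07, -0.57 and -0.86 without the cells with ureteric UMIs, and *Lama5*, a laminin of basement membranes, went from -2.13 to -0.95. Without those cells *Krt7*, *Tfcp2l1* and *Klf5* held only 5, 12 and 21 UMIs in Enl-WT members. *Calb1*, the calcium-binding protein calbindin of the ureteric bud (89.5, 13.9 and 63.6 CPM), is among the 8 genes that define those cells, so its value without them is set by the removal. The other leading genes stayed at least 2-fold lower, though their Enl-WT levels were smaller without those cells. These levels were 66.9 CPM for *Neat1*, 65.1 for *Timp3*, 64.2 for *Gfra1*, 40.5 for *Dsp* and 18.5 (21 UMIs) for *Ahnak*. The CPM that follow are of all members. *Dsp*, desmoplakin, was at 59.4 CPM (47.3 to 73.7) in Enl-WT, 5.65 (3.62 to 8.41) in Enl-T1 and 4.98 (3.45 to 6.96) for treated Enl-T1, with a log2 ratio of -3.04 in all members and -2.95 without those cells. *Gfra1*, the co-receptor for GDNF, was at 73.8, 11.5 and 34.7 CPM (-2.32 and -2.34). *Timp3*, an inhibitor of metalloproteinases, was at 91.7, 15.1 and 13.9 CPM (-2.25 and -1.91), *Ahnak* at 53.7, 7.54 and 8.79 CPM (-2.47 and -1.66), and the nuclear RNA *Neat1* at 302, 48.3 and 33.0 CPM (-2.29 and -1.44). Another nuclear RNA, *Malat1*, was at 9701, 7695 and 6146 CPM. *Lhx1*, *Crym* and *Cited1* kept their ratios without those cells (-2.20, -1.68 and -1.17).

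Signalling lists gave few genes past 2-fold in Enl-T1 over Enl-WT. Of 14 Notch pathway genes 6 were tested, and *Notch1* was at least 2-fold lower (63.7 CPM in Enl-WT, 16.5 in Enl-T1 and 13.2 for treated Enl-T1). *Hes1*, a Notch effector, was at 109, 121 and 152 CPM. None of the 7 tested FGF and ERK response genes of 9 was past 2-fold, and neither were the 3 Wnt targets tested of 9. Among 12 fetal growth genes, 8 of them tested, the imprinted transcript *H19* was lower, at 1346 CPM (1285 to 1408) in Enl-WT, 501 in Enl-T1 and 540 for treated Enl-T1.

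Electron transport chain and ribosomal protein genes were higher in Enl-T1 members. Of 84 electron transport chain genes 77 were tested, 73 were higher (57 on plain CPM) and 29 at least 2-fold (beside 4.88% of all genes), with a median log2 ratio of 0.67 (0.31 on plain CPM). Of 83 ribosomal protein genes 80 were tested, 79 were higher and the median was 1.02. These genes have short transcripts, with a median exonic length of 1675 bases in the first list and 1806 in the second, beside 4677 over all genes tested, and 2571 for the tested *Hox* genes. The part of exonic length, and of the ribosomal protein share given above, in these differences was not tested.

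Members of the treated library were set against members of Enl-T1, the same Enl-T1 cells as in the comparison with Enl-WT. The median gene stood at a log2 ratio of 0.02, 27 genes were at least 2-fold higher (0.441%) and 66 at least 2-fold lower (1.08%). Here too log2 ratios ran lower for genes with longer exonic sequence (Spearman's rho -0.46 across 6121 genes). The part of exonic length in the differences between these libraries was not tested. In the self-renewal list 3 genes were at least 2-fold higher in treated Enl-T1, namely *Crym*, 3.38-fold (2.87 to 4.01), *Cited1*, 2.65-fold (2.28 to 3.09), and *Osr1*, 2.05-fold (1.67 to 2.54), and none of the 13 tested was 2-fold lower. *Six2*-led cells were 122 of the 339 treated members and 46 of the 305 Enl-T1 members. For *Cited1* the levels in Enl-T1 and treated Enl-T1 were 135 and 233 CPM in *Six2*-led members and 29.9 and 52.6 CPM in *Wnt4*-led members. *Crym* was at 91.8 and 198 CPM in *Six2*-led and 27.5 and 77.6 CPM in *Wnt4*-led members. *Wt1*, which has 1 working allele in all groups, was at 173 CPM (151 to 196) in Enl-WT, 111 (101 to 121) in Enl-T1 and 70.8 (64.6 to 77.4) for treated Enl-T1. *Pax2* was lower in the same order of libraries, so the list did not move as 1 block.

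Commitment genes were lower in the treated members in 11 of 14 tested cases, 3 of them at least 2-fold (beside 1.08% of all genes), with a median log2 ratio of -0.24. In *Wnt4*-led members alone the list summed to 1657 CPM in Enl-T1 and 1678 CPM in treated Enl-T1, and in *Six2*-led members to 1429 and 1128 CPM. The sums in *Wnt4*-led members covered differences in both directions. There *Cdh6* (105 and 36.1 CPM), *Lef1* (45.6 and 21.2) and *Greb1* (65.3 and 30.5) were lower in treated Enl-T1, and *Ccnd1* (249 and 352) and *Pax8* (57.1 and 78.8) were higher. Over all members, *Cdh6* was at 0.219-fold (0.179 to 0.266) of its Enl-T1 level and *Greb1* at 0.422-fold (0.342 to 0.518). *Lef1*, the nuclear partner of beta-catenin, was at 27.9 CPM (19.9 to 38.2) in Enl-WT, 36.1 (30.6 to 42.2) in Enl-T1 and 11.9 (9.43 to 14.8) for treated Enl-T1. *Fgf8* was at 25.8, 24.0 and 37.5 CPM, the highest level in the treated library. *Lhx1* had a ratio of 0.988 (0.754 to 1.30) over all members, with 25.2 CPM in Enl-T1 and 39.1 CPM in treated Enl-T1 among *Wnt4*-led members and 20.4 CPM and 0.743 CPM (2 UMIs) among *Six2*-led members.

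Genes of mitosis were lower and those of glycolysis higher in treated members. Of 14 mitosis genes 12 were lower and 3 at least 2-fold (beside 1.08% of all genes), with a median log2 ratio of -0.57. *Mki67* was at 459 CPM (424 to 496) in Enl-WT, 177 (164 to 190) in Enl-T1 and 70.3 (64.2 to 76.9) for treated Enl-T1, and *Top2a* at 662, 453 and 184 CPM, each level apart from the next beyond counting error. *Ccnb2* (70.2, 66.7 and 69.9 CPM) and *Cdc20* (84.5, 75.2 and 86.5 CPM) showed no such order. Cycling cells were those with at least 2 of 5 genes (*Mki67*, *Top2a*, *Ube2c*, *Cenpf*, *Hmmr*), counted after members chosen at full depth were thinned to 2000 UMIs. They were 51.7% (44.0% to 59.4%), 34.8% (29.4% to 40.4%) and 25.4% (20.8% to 30.4%) of members, and 71.5%, 62.6% and 67.0% as sequenced. In *Six2*-only cells, also chosen at full depth and then thinned, the shares were 32.4%, 23.2% and 24.4%. The choice of cells was thus not matched for depth. Of 13 glycolysis genes tested 11 were higher in treated members, with a median log2 ratio of 0.47, among them the enolase *Eno1* (156, 123 and 277 CPM) and *Gapdh* (527, 1143 and 1781 CPM).

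Among the leading genes of this comparison, *Hspa1a*, an inducible heat shock protein, was at 10.7, 5.18 and 63.7 CPM, a ratio of 12.3 (8.02 to 19.8). *Ckb*, *Crip2*, *Nnat*, *Des* and *Cap1* were 2.66-fold to 3.69-fold higher. *Calb1* was 4.58-fold higher (3.48 to 6.11) in all members, of which 1.97% in Enl-T1 and 5.60% in treated Enl-T1 were the cells that it helps to define by ureteric UMIs. *Gfra1* was higher with and without those cells (log2 ratios of 1.57 and 1.71). In the lower direction, *AA465934* was at 20.1 CPM (13.3 to 29.0) in Enl-WT, 67.2 (59.6 to 75.4) in Enl-T1 and 2.78 (1.68 to 4.35) for treated Enl-T1, followed by *Cdh6*. *Aspm*, *Nusap1*, *Depdc1a*, *Neil3* and *Hist2h2ac* were at 0.282-fold to 0.350-fold, and so were *Crabp1* (0.326-fold), *Lef1* (0.329-fold) and *Tenm4* (0.350-fold). Leaving out the cells with ureteric UMIs gave 24 genes higher and 70 lower in this comparison, and 298 and 132 in Enl-T1 over Enl-WT.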

How the data were processed

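The authors deposited raw UMI counts per gene and barcode for cells called by Cell Ranger 6.1.2 (Chromium 3′, mm10), with 32285 genes and no later filter on cells. Members and gene lists were chosen with earlier results of these data known. UMIs were summed over the members of each library, scaled to CPM and compared as ratios with exact Poisson-based intervals, and shares have exact Clopper-Pearson intervals (95%). Genes with at least 20 CPM on average were compared, without the 4 genes of the rule, and 0 UMIs were set at 3 UMIs in log2 ratios. Named genes were the 10 with the largest ratios in each direction for each comparison between libraries and the 8 shared by 3 libraries for each within, without ribosomal, mitochondrial, haemoglobin, Xist and Y-linked, Gm and Rik genes, plus members of the lists, the rule genes, *Mllt1*, *Wt1*, *Xist* and *Malat1*. Doublets were kept. Scrublet (scanpy 1.11.5) was run as an alternative, and in the 2 mutant libraries, where its threshold marked 3 and 0 barcodes, the 346 and 333 highest scores were removed. Thinning drew UMIs without replacement. Gene positions are from GENCODE M21 (GRCm38). The steps were tested on simulated data (Python 3.11.15, SciPy 1.17.1). Alternatives are given in the closing section. Some genes that the rule would name are not reported here.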

Additional observations from a re-analysis of the deposited data

Results flagged for a closer look

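Barcodes with more than 6000 genes are left out of every comparison above. They met the same *Six2*, *Wnt4* and collagen limits in 2 of 55 barcodes in Enl-WT (3.64%, 0.443% to 12.5%), 14 of 309 in Enl-T1 (4.53%, 2.50% to 7.49%) and 83 of 577 in treated Enl-T1 (14.4%, 11.6% to 17.5%). Both mutant libraries were listed because their numbers of such barcodes, 14 and 83, passed a small minimum that the 2 of Enl-WT did not. The shares were not compared for this listing. The intervals of Enl-T1 and Enl-WT overlap, so this pair could not be told apart.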

How the results depend on the processing

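Over 18 results and their alternatives, 130 of 192 values stayed within the main interval or within 1.5 times the main count, 62 moved further, and no result whose main interval excluded 0 changed sign. The member share difference, Enl-T1 minus Enl-WT, was 0.292 points at 2000 UMIs, 0.372 at 4000 UMIs, 2.12 with at least 2 UMIs of each gene, 3.08 at a mitochondrial share of at most 5% and 5.81 in male cells. For treated Enl-T1 minus Enl-T1 it was 0.434, 1.40 and 3.28 points under the first 3 of these. *Wnt4* among *Six2*-positive cells differed by 22.5 (2000 UMIs), 26.4 (4000 UMIs) and 24.7 points (mitochondrial limit) for Enl-T1 minus Enl-WT, in place of 39.0, and by -10.9 points (mitochondrial limit) for treated Enl-T1 minus Enl-T1, in place of -18.5. The cause was not tested.

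Counts of genes at least 2-fold apart, Enl-T1 over Enl-WT, were 573 higher and 640 lower at 2000 UMIs, 571 and 527 without cycling cells, 134 and 620 on plain CPM, 642 and 566 at 5 CPM and 167 and 78 at 50 CPM. The count lower was also 354 with 2 UMIs of each gene, 327 at the mitochondrial limit, 98 with no upper gene limit, 395 in male cells and 336 on the reduced total. For treated Enl-T1 over Enl-T1 they were 234 and 247 at 2000 UMIs, 71 and 195 at 4000 UMIs, 113 and 114 in male cells, 151 and 199 at 5 CPM and 12 and 33 at 50 CPM, and the count higher was 52 with 2 UMIs of each, 69 at the mitochondrial limit and 77 without cycling cells. The cause was not tested, except that the CPM limits change the number of genes compared.

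List medians, Enl-T1 over Enl-WT, were -0.54 (4000 UMIs) and -0.64 (plain CPM) for self-renewal, -0.14 (2000 UMIs) and -0.12 (50 CPM) for commitment, and 1.00 (2 UMIs of each) and 1.01 (plain CPM) for *Hox*. For treated Enl-T1 over Enl-T1 they were -0.083 (mitochondrial limit) and -0.0068 (50 CPM) for self-renewal, -0.74 (2000 UMIs) and -0.59 (without cycling cells) for commitment, and -0.65 (4000 UMIs), -0.15 (without cycling cells) and -0.19 (50 CPM) for *Hox*. Against *Six2*-only cells, 36 higher and 19 lower genes were called at 5 CPM and 4 higher at 2000 UMIs. Against *Wnt4*-only cells the counts were 244 and 914 at 5 CPM, 44 and 253 at 2000 UMIs, and 20 and 135 without cells with ureteric UMIs, an alternative chosen after seeing the data. Thinned sets rest on 36, 41 and 39 members, which limits their gene counts.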
